A study of Homo sapiens with 16 samples.

Results

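The genes described here are 35 established transcriptional targets of p53, a list of named genes of the pathway that was drawn up with earlier results of these data known. All 35 were found among the 60675 gene identifiers of the count table, and all 35 were among the 19772 genes with enough counts to be tested. The study compared the transcriptomes of human embryonic stem cells in which SALL4, VRTN, DSCC1 or SEPHS1 was targeted by RNA interference with those of control cells. The cells were the H9 line carrying EGFP driven by the Rex1 promoter, grown on Matrigel in mTeSR1, and poly(A) RNA of 16 cultures was sequenced as 80-base single-end reads. The 4 knockdown groups of 3 libraries each were compared with 4 control libraries, of which 2 received an siRNA against Renilla luciferase (labelled Luciferase) and 2 are labelled only Control.

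Every group, controls included, was the same H9 reporter line. The siRNAs were transfected with DharmaFECT 1 at 30 to 50 nM. The SALL4, DSCC1 and SEPHS1 reagents and the luciferase reagent were esiRNAs, which are enzymatically prepared mixtures of many short RNAs against 1 transcript, and the VRTN reagent was an siRNA from another supplier, Dharmacon. By the labels, SALL4 and VRTN cells were harvested at 48 h and DSCC1 and SEPHS1 cells at 72 h, although the same labels also speak of 3 to 4 days of growth, so these times are uncertain. The harvest time of the controls is not given in the sources used here, so time and knockdown cannot be told apart in any of the 4 comparisons with the controls. SALL4 and VRTN have the same labelled harvest time, but they differ in the kind of siRNA as well as its target.

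The p53 protein is a transcription factor that is kept scarce in unstressed cells by MDM2, a ubiquitin ligase whose own gene p53 activates. DNA damage, ribosome stress and other insults stabilise p53, and it then binds a pair of adjacent decamers near its targets. Those targets slow the cell cycle (CDKN1A, which encodes the kinase inhibitor p21), promote cell death (BAX, BBC3, PMAIP1), repair DNA (XPC, DDB2), buffer metabolism and redox state (SESN1, TIGAR), and feed back on p53 (MDM2, PPM1D). Human pluripotent stem cells are known to be sensitive to p53 activation, to which they respond by differentiation or cell death.

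Library totals ran from 18597262 to 28662389 counts, so that 3 counts, the floor used here for detection, corresponded to 0.105 to 0.161 CPM, the TMM-normalised unit of level used throughout (reads of a gene scaled to a fixed library size). The siRNA targets were checked first. VRTN mRNA fell by 2.75 on the log2 scale (SE 0.13, adjusted p = 2.04e-16) and SEPHS1 mRNA fell by 2.75 (SE 0.14, adjusted p = 9.09e-15) in their own groups. DSCC1, which was low (3.30 to 5.16 CPM in the controls, 0.601 to 0.938 CPM after its siRNA), did not pass (log2 fold change -2.27, SE 0.71, adjusted p = 0.486). SALL4 mRNA stood at 193, 213 and 235 CPM in its replicates 1, 2 and 3 and at 243 to 303 CPM in the controls, below them in every library but not called (log2 fold change -0.36, SE 0.11, adjusted p = 0.0562). Of 10 pluripotency markers, SALL4 itself and DNMT3B included, 9 had counts in every library. Their summed levels were 3180 to 3880 CPM in the controls and 2650 to 3140 CPM in the SALL4 libraries, all below the controls. Singly, 4 of the 9 tested markers had a log2 fold change above 0 after SALL4 siRNA and 5 below, with a median of -0.12. ZFP42, the gene that encodes Rex1, had 0 counts in all 16 libraries, although its promoter drives the reporter of this line. The series text calls the libraries of a group biological replicates, and the test measures the spread between them.

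One library must be described before the results. In SALL4 replicate 3, the p53 targets stood near or below the controls, whereas replicates 1 and 2 stood above them. Of the 35 targets, 24 were above all 4 controls in replicate 1, 27 in replicate 2 and 8 in replicate 3, while among all tested genes these shares were 26.1%, 25.6% and 24.6%. The median log2 ratio of the 35 targets to the control mean was 0.75, 0.77 and -0.23 in the same order. In VRTN replicates 1, 2 and 3 it was -0.09, 0.04 and -0.37. In VRTN replicate 3, 18 of 35 targets were below all 4 controls, against 24.6% of all tested genes. Replicate 3 was also lowest for SEPHS1 (-0.29) but highest for DSCC1 (-0.25). Replicates 1 and 2 were at 0.22 and -0.17 for Luciferase and at 0.12 and -0.20 for Control. Replicate 3 was the lowest of the 3 SALL4 libraries in 30 of 35 targets, against 33.9% of all tested genes. Among the 366 genes that rose after SALL4 siRNA (adjusted p under 0.05), replicate 3 was lowest in 239. It also had the highest SALL4 mRNA of the 3 (235 CPM), the lowest sum of 9 fibroblast and mesenchyme markers, of which 3 had counts in every library and none was at 0 in all (1560 CPM, against 2480 and 2250 CPM in replicates 1 and 2 and 1880 to 2560 CPM in the controls) and the highest share of counts on mitochondrial genes (34.8%, against 31.1% and 26.4%, and 27.9% to 33.4% in the controls). The part of these differences in the results was not tested, and the called SALL4 results are given below with all 3 libraries and without replicate 3.

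Single lineage markers also moved with SALL4 siRNA. DNMT3B, a DNA methyltransferase of pluripotent cells, fell by 1.31 (adjusted p = 1.7e-08), the 1 called of 9 tested pluripotency markers. Of 5 neuroectoderm markers FEZF1 rose by 2.56 (adjusted p = 1.62e-07) and NES fell by 0.67 (adjusted p = 0.000784). Of 6 fibroblast and mesenchyme markers VIM rose by 1.12 (adjusted p = 0.000185) and COL1A1 fell by 0.82 (adjusted p = 0.00498), and of 3 trophoblast markers KRT7 fell by 2.13 (adjusted p = 0.0445). For each of these 6 markers all 3 SALL4 libraries, replicate 3 included, lay on the same side of the controls. Their part in the changes of the p53 targets was not tested.

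**Figure D1:**
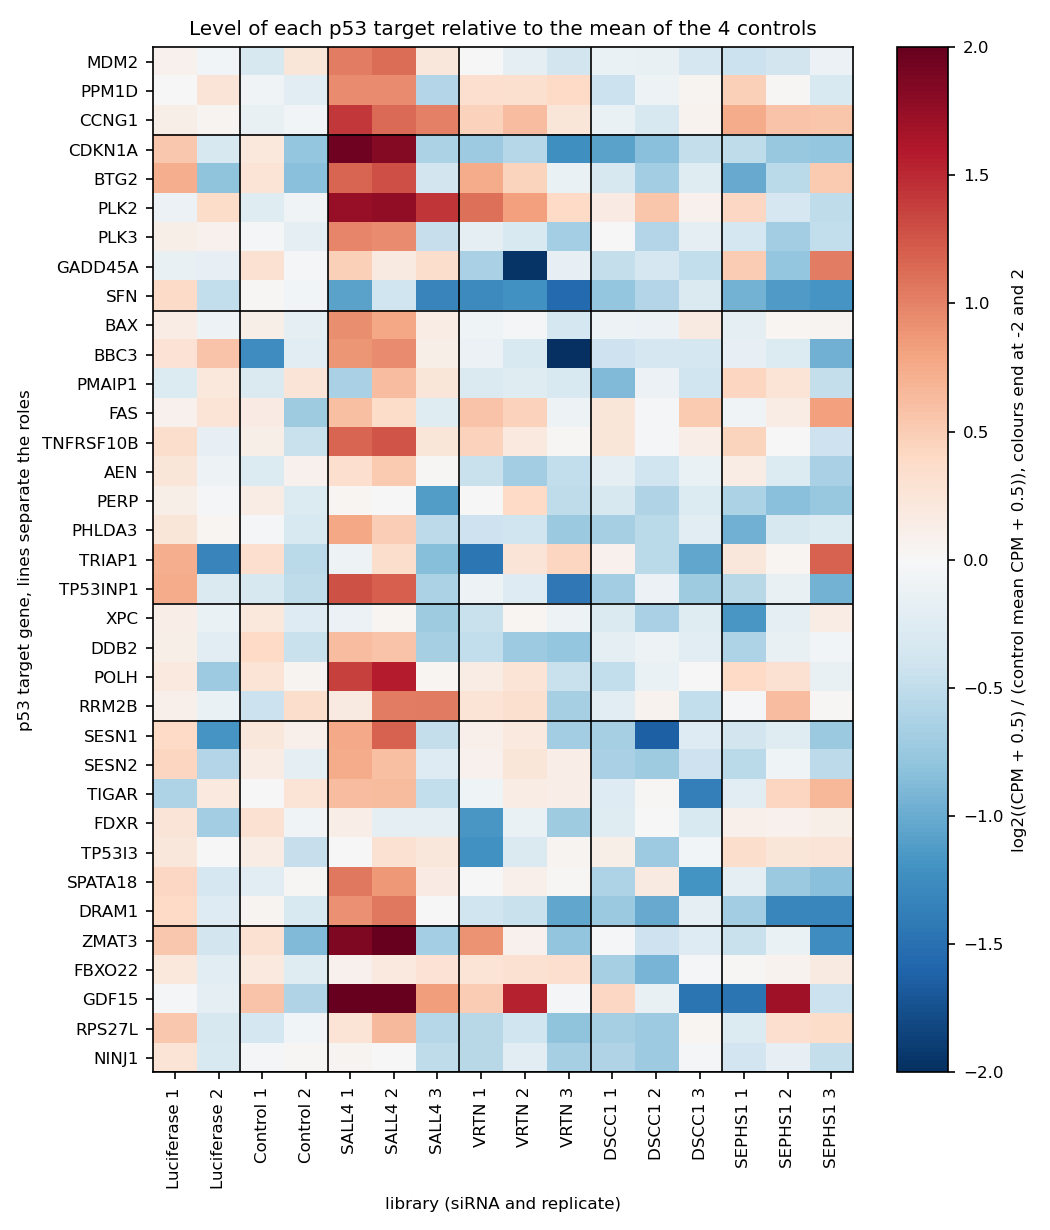
The log2 ratio of each of the 35 p53 targets to the mean of the 4 controls (0.5 CPM added to both), with genes in rows ordered by role and the 16 libraries in columns. SALL4 replicates 1 and 2 show positive ratios in most rows (medians 0.75 and 0.77), and SALL4 replicate 3 does not (median -0.23).

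Matches to the DNA motif that p53 recognises are shown for the 4 targets in which 1 was found next to a start of transcription. RefSeq promoter windows (GRCh38.p14, 250 bases before to 50 after each start) were at hand for 29 of the 35 targets. They were searched for 2 adjacent p53 decamers with no spacer, at most 2 mismatches over the 20 positions, and the central C and G of both decamers kept. The motif is its own reverse complement, so 1 pass reads both strands. A pair was found in 4 of the 29 targets, against 0.359% of 27305 genes with a window. The targets were listed because they are established targets of p53, so the difference between these shares is not independent evidence. Below, capitals mark the pair in a stretch of 30 bases, written 5′ to 3′ on the plus strand.
MDM2, chr12:68808918-68808947: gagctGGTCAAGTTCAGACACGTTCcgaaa
FAS, chr10:88991304-88991333: ctcctGGACAAGCCCTGACAAGCCAagcca
DDB2, chr11:47214964-47214993: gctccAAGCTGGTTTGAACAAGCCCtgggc
AEN, chr15:88621301-88621330: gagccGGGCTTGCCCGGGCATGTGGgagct

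The MDM2 pair begins 94 bases before an internal start of the gene, has 2 mismatches, and lies in an intron of 7 and in an exon of 0 of its 34 GENCODE 29 transcripts. The FAS pair begins 122 bases before a start, also has 2 mismatches, and is intronic in 11 and exonic in 2 of 20 transcripts. The DDB2 pair has 1 mismatch and spans the start itself, from base -5, and the AEN pair has 2 mismatches and begins at base -34. Of these 4 genes only MDM2 was called against the controls after SALL4 siRNA, while MDM2, DDB2 and AEN were called in SALL4 against VRTN and FAS was called in neither. A match describes letters only, and targets whose known sites lie farther away, such as CDKN1A, show no pair in this window.

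In the control siRNA cells the 35 targets covered a wide range of levels. Per kilobase of merged exon, a scale on which genes can be compared, BAX was highest in the controls at 61.2 ± 6.91 CPM per kb (SD, n = 4), followed by NINJ1 at 27.7 ± 4.59, CDKN1A at 16.3 ± 6.29, SFN at 15.5 ± 3.88 and AEN at 11.2 ± 1.72 CPM per kb. CDKN1A and SFN, neighbours in that order, did not differ beyond their spread. The lowest were GDF15 at 0.422 ± 0.23, SPATA18 at 0.731 ± 0.197 and TIGAR at 0.791 ± 0.229 CPM per kb, which also overlapped one another. The controls themselves were uneven in these genes: replicate 1 was above replicate 2 with both control siRNAs in 22 of the 35 targets, against 25.3% of all tested genes. No target was called between the 2 control siRNAs by edgeR's quasi-likelihood test, where 0.0% of all genes were, and 0 of 35 had an unadjusted p under 0.05.

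After SALL4 siRNA, 8 of the 35 p53 targets rose and 1 fell (adjusted p under 0.05, here "called", by the quasi-likelihood test of edgeR, adjusted after Benjamini and Hochberg over all 19772 genes). Of all tested genes 1.85% were called higher and 1.13% lower in this comparison, 2.98% in all. The 8 were MDM2, CCNG1, CDKN1A, PLK2, BAX, TNFRSF10B, POLH and ZMAT3, and SFN was the one that fell. The fold change was above 0 in 29 of 35 targets, with a median log2 fold change of 0.62, against 51.3% of all tested genes and a median of 0.02. All 3 SALL4 libraries stood above all 4 controls in 4 targets (CCNG1, PLK2, BAX and GDF15) and below them in 0, where 6.82% and 6.83% of all genes did so. Left out of the fit, SALL4 replicate 3 took with it only the call of SFN, and 12 targets were then called higher, BTG2, PLK3, PPM1D and TP53INP1 in addition. Without SALL4 replicate 1 there were 4 and without replicate 2 there were 3. The count of all genes called also moved, from 590 to 924, 275 and 291 in the same 3 fits. Fitted on the SALL4 and control libraries alone, CCNG1 and PLK2 kept their calls, GDF15 gained one, and the other 7 were lost, with 349 genes called in all.

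Of the 3 feedback regulators, MDM2 and CCNG1 rose. MDM2, which marks p53 for degradation, stood at 77.0, 82.8 and 44.1 CPM in SALL4 replicates 1, 2 and 3, at 40.0 and 36.2 CPM in the Luciferase libraries and at 30.2 and 44.5 CPM in the Control libraries. Replicates 1 and 2 were well above every control and replicate 3 lay at the upper end of the controls, just under Control replicate 2. MDM2 rose by 0.85 on the log2 scale (SE 0.18, adjusted p = 0.00337), and 0.70 (adjusted p = 0.0682) without SALL4 replicate 2. Fitted on the compared groups only, its adjusted p was 0.0585.

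CCNG1 encodes cyclin G1, which brings a phosphatase to MDM2. Its level was 45.0, 37.1 and 33.9 CPM after SALL4 siRNA, 18.1 and 17.4 CPM with luciferase siRNA and 15 and 16.1 CPM in the Control pair. Every SALL4 library was above every control, replicate 3 included. The log2 fold change was 1.22 (SE 0.18, adjusted p = 3.82e-05) and ranged from 1.10 to 1.32 over all alternatives run, in each of which the call held. PPM1D, the phosphatase WIP1 that dampens p53 signalling, did not pass (log2 fold change 0.62, adjusted p = 0.296): at 26.6 and 26.4 CPM it was high in replicates 1 and 2, and at 8.82 CPM in replicate 3 it was under the lowest control, 11.6 CPM.

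The 6 genes that brake the cell cycle held both directions: CDKN1A and PLK2 rose, SFN fell, and BTG2, PLK3 and GADD45A were not called. CDKN1A stood at 192 and 178 CPM in SALL4 replicates 1 and 2 and at 31.7 CPM in replicate 3. The Luciferase pair had 72.4 and 39.8 CPM and the Control pair 57.2 and 28.9 CPM. The first 2 SALL4 libraries were far above the highest control, and the other lay between the controls. On the log2 scale CDKN1A rose by 1.45 (SE 0.31, adjusted p = 0.00515). It became 1.93 (adjusted p = 2.47e-08) without SALL4 replicate 3, 1.09 (adjusted p = 0.0941) without replicate 1 and 1.21 (adjusted p = 0.0714) without replicate 2. The adjusted p was 0.127 in the fit on the compared groups only.

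PLK2, a stress-induced kinase that acts on centrosomes, was at 19.8, 20.3 and 16 CPM after SALL4 siRNA and at 5.10, 7.32, 4.64 and 5.31 CPM in the 4 controls. All 3 SALL4 libraries were above the controls with no overlap. The rise was 1.75 on the log2 scale (SE 0.29, adjusted p = 0.000262), and the call held in all alternatives, over a range of 1.58 to 1.94. Its relative PLK3 was at 32.8 and 32.2 CPM in replicates 1 and 2 and at 11.9 CPM in replicate 3, below all controls (14.3 to 17.9 CPM), and was not called (0.64, adjusted p = 0.231).

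SFN, the 14-3-3 sigma gene, whose product holds cyclin B1 in the cytoplasm, moved the other way. Its level was 9.49, 15.3 and 7.92 CPM after SALL4 siRNA, 26.9 and 14.4 CPM in the Luciferase pair and 20.8 and 19.6 CPM in the Control pair. SALL4 replicate 2 overlapped the lower Luciferase library, and the other two lay below all controls. It fell by 0.90 (SE 0.26) with an adjusted p of 0.05, which was just under the threshold before rounding, and the call was lost in 13 of 19 alternatives, among them a fit without Luciferase replicate 1 (-0.65, adjusted p = 0.344). BTG2, an antiproliferative cofactor of mRNA decay, had a log2 fold change of 0.91 (adjusted p = 0.283) and GADD45A, a sensor of growth arrest and damage, 0.38 (adjusted p = 0.835). The controls of BTG2 ran from 4.93 to 15.4 CPM, with both higher values in replicates 1.

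Among the 10 genes of cell death, BAX and TNFRSF10B rose and 8 were not called. BAX, the pore-forming protein of the mitochondrial outer membrane, stood at 303, 270 and 176 CPM after SALL4 siRNA, against 175 and 147 CPM with luciferase siRNA and 172 and 139 CPM in the Control pair. Replicates 1 and 2 were far above the controls, and replicate 3 was above them only by the smallest margin, level with Luciferase replicate 1. BAX rose by 0.66 on the log2 scale (SE 0.14, adjusted p = 0.00428), and 0.49 (adjusted p = 0.086) without SALL4 replicate 1. Its adjusted p was 0.0662 in the fit on the compared groups only.

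TNFRSF10B encodes the death receptor DR5. It stood at 95.8, 102 and 50.1 CPM after SALL4 siRNA, at 54.5 and 37.8 CPM in the Luciferase libraries and at 46.2 and 31.0 CPM in the Control libraries. Replicate 3 lay inside the range of the controls. The log2 fold change was 0.97 (SE 0.20, adjusted p = 0.00329), and 0.81 (adjusted p = 0.0588) without SALL4 replicate 2. In the fit on the compared groups only, the adjusted p was 0.0524. An exon of TNFRSF10B overlaps one of RHOBTB2 on the opposite strand, and whether counting used the strand is not given in the sources used here. RHOBTB2 itself had a log2 fold change of 0.09 (adjusted p = 0.959).

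The mitochondrial death genes BBC3 (which encodes PUMA; 0.91, adjusted p = 0.59) and PMAIP1 (NOXA; 0.19, adjusted p = 0.975) were not called. Both were low, at 1.17 to 5.36 and 2.20 to 3.44 CPM in the controls, and their SEs of 0.62 and 0.55 were among the larger of the 35. The death receptor FAS (0.32, adjusted p = 0.779), the nuclease gene AEN (0.32, adjusted p = 0.393), the AKT inhibitor gene PHLDA3 (0.36, adjusted p = 0.52) and TP53INP1, a stress protein that acts in autophagy and death (0.94, adjusted p = 0.312), were not called either. In all 4, SALL4 replicates 1 and 2 were above every control and replicate 3 was not. TP53INP1 was at 15.7 and 14.8 CPM in replicates 1 and 2 but at 3.83 CPM in replicate 3, under the lowest control at 4.22 CPM. The membrane protein gene PERP (-0.28, adjusted p = 0.722) and the small survival factor TRIAP1 (-0.15, adjusted p = 1) had no SALL4 library above the controls.

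**Figure D2:**
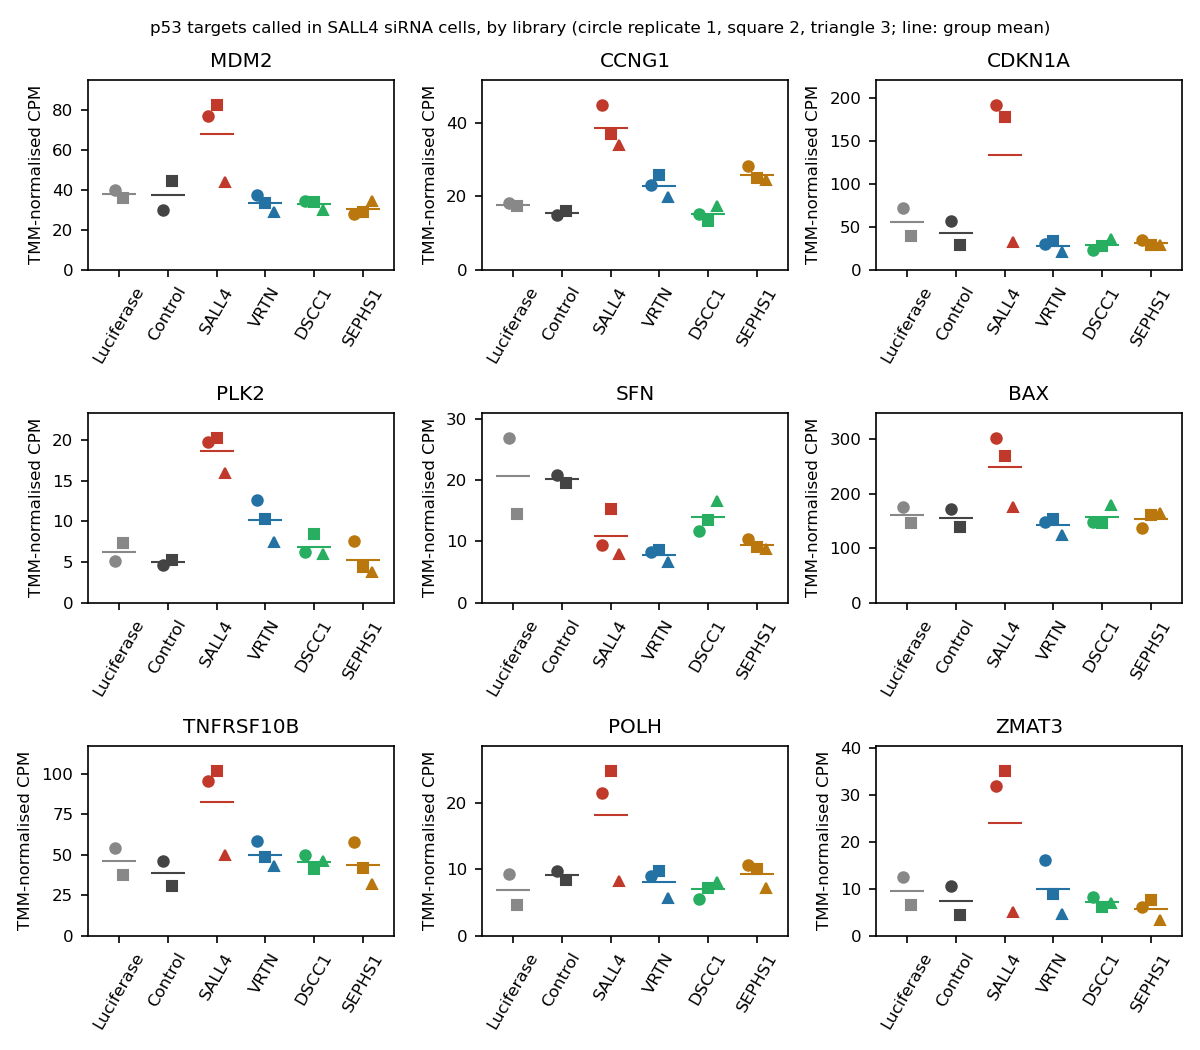
TMM-normalised CPM (linear axes from 0) of the 9 p53 targets called after SALL4 siRNA, by group, with a circle for replicate 1, a square for replicate 2, a triangle for replicate 3 and a line for each group mean. SALL4 triangles lie among the controls for MDM2 (44.1), CDKN1A (31.7), TNFRSF10B (50.1), POLH (8.31) and ZMAT3 (5.07), and above them for CCNG1 (33.9) and PLK2 (16).

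Of the 4 genes of DNA repair and nucleotide supply, POLH rose. POLH, the polymerase that copies past ultraviolet lesions, stood at 21.5, 24.9 and 8.31 CPM after SALL4 siRNA, at 9.25 and 4.68 CPM in the Luciferase pair and at 9.83 and 8.37 CPM in the Control pair. Replicate 3 was within the controls. The log2 fold change was 1.20 (SE 0.31, adjusted p = 0.0274), and the call was lost in 8 of 19 alternatives, including those without Luciferase replicate 2 (0.99, adjusted p = 0.106), Control replicate 2 (1.14, adjusted p = 0.0588), SALL4 replicate 1 (1.07, adjusted p = 0.162) or SALL4 replicate 2 (0.92, adjusted p = 0.278). POLH shares exon sequence with GTPBP2 on the opposite strand, for which the log2 fold change was -0.18 (adjusted p = 0.711).

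RRM2B, the p53-inducible subunit of ribonucleotide reductase, was not called (0.83, adjusted p = 0.163) and had its own order: 9.66 CPM in SALL4 replicate 1, among the controls of 6.18 to 10.9 CPM, and 17.7 and 18 CPM in replicates 2 and 3. It was one of 5 targets in which replicate 3 was not the lowest, with GADD45A, PMAIP1, TP53I3 and FBXO22. The damage recognition genes DDB2 (0.29, adjusted p = 0.654) and XPC (-0.23, adjusted p = 0.773) were not called. DDB2 stood at 51.0 and 49.5 CPM in replicates 1 and 2 and at 20.8 CPM in replicate 3, with controls of 24.3 to 43.7 CPM.

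None of the 7 genes of redox control, metabolism, mitochondria and autophagy was called, and none had an unadjusted p under 0.05. Their log2 fold changes ran from -0.07 for FDXR, the mitochondrial ferredoxin reductase, to 0.83 for SPATA18, a mitochondrial quality control gene, with a median of 0.44 and 6 of 7 above 0. DRAM1, a lysosomal membrane protein of autophagy, was at 10.6, 11.7 and 5.37 CPM (0.79, adjusted p = 0.411) with controls of 4.25 to 7.22 CPM. The stress sensors SESN1 (0.71, adjusted p = 0.59) and SESN2 (0.44, adjusted p = 0.399) and the fructose bisphosphatase TIGAR (0.40, adjusted p = 0.843) had replicates 1 and 2 above all controls and replicate 3 not. The quinone oxidoreductase TP53I3 had a log2 fold change of 0.20 (adjusted p = 0.913).

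ZMAT3 was the called gene among 5 of other roles. It encodes an RNA-binding protein that acts on splicing and stood at 31.9, 35.1 and 5.07 CPM in SALL4 replicates 1, 2 and 3, at 12.4 and 6.44 CPM in the Luciferase pair and at 10.5 and 4.32 CPM in the Control pair. Replicate 3 was 0.151 of the mean of the other two, the lowest such ratio of the 35 targets, followed by CDKN1A at 0.171. The log2 fold change of ZMAT3 was 1.53 (SE 0.43, adjusted p = 0.0409), with SALL4 replicate 3 left out 2.02 (adjusted p = 0.000244). The call was lost in 8 of 19 alternatives, among them the fits without SALL4 replicate 1 (1.27, adjusted p = 0.248), SALL4 replicate 2 (1.17, adjusted p = 0.335) and Control replicate 2 (1.28, adjusted p = 0.0521).

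GDF15, a secreted stress cytokine, had the largest fold change of the 35, 2.69, but with an SE of 0.98 and an adjusted p of 0.163 it was not called. It stood at 8.37, 6.70 and 1.96 CPM after SALL4 siRNA and at 0.85, 0.72, 1.55 and 0.408 CPM in the 4 controls, without overlap. FBXO22, a ubiquitin ligase subunit (0.20, adjusted p = 0.857), RPS27L, a ribosomal protein S27 paralogue (0.22, adjusted p = 0.89), and NINJ1, which ruptures the plasma membrane of dying cells (-0.13, adjusted p = 0.868), were not called.

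In SALL4 replicate 3 the targets thus split. Of the 8 called higher, 3 (CCNG1, PLK2 and BAX) were above all controls in that library and 5 were not. Of all 366 genes called higher in this comparison, 296 were above all controls in replicate 3. The share of replicate 3 relative to the mean of replicates 1 and 2 was 0.826 for CCNG1 and 0.80 for PLK2, 0.614 for BAX, 0.551 for MDM2 and 0.506 for TNFRSF10B. Without replicate 3 the log2 fold changes of these genes were 1.32 for CCNG1 (adjusted p = 1.42e-05), 1.86 for PLK2 (adjusted p = 0.00016), 0.87 for BAX (adjusted p = 1.24e-05), 1.10 for MDM2 (adjusted p = 1.86e-05) and 1.24 for TNFRSF10B (adjusted p = 1.5e-05). POLH was then at 1.56 (adjusted p = 0.000784), and SFN at -0.71 (adjusted p = 0.175) was no longer called. Since all 3 libraries carry the same label, they were kept as 1 group in every test. As this is bulk RNA, fewer cells that express a target and less of its RNA per cell cannot be told apart.

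In VRTN siRNA cells none of the 35 targets rose and SFN fell, where 0.445% of all tested genes were called higher and 0.683% lower. The median log2 fold change of the targets was -0.15 and 15 of 35 were above 0, against 0.02 and 51.6% over all tested genes. An unadjusted p under 0.05 was found for 8 of 35. DESeq2 and limma-voom also called 0 targets higher. Summed fibroblast and mesenchyme markers were at 988 to 1450 CPM in the VRTN libraries, below all controls (1880 to 2560 CPM), with 3 of 9 having counts in every library. Singly, 4 of the 6 tested markers of that list had a log2 fold change above 0 and 1 below, with a median of 0.10. Of the 6, 1 was called lower and 0 higher. Summed mesendoderm markers, 2 of 7 with counts in every library, were at 18.9 to 23.5 CPM, above all controls (8.52 to 13.5 CPM). The part of either in these values was not tested. SFN stood at 8.19, 8.53 and 6.62 CPM in the VRTN libraries, below all 4 controls (14.4 to 26.9 CPM). It fell by 1.39 (SE 0.27, adjusted p = 0.00333), and against replicate 2 of the controls alone the value was -1.11 (adjusted p = 0.0777).

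The VRTN libraries were all above the controls in 4 targets (PPM1D, CCNG1, PLK2 and FBXO22) and all below them in 7 (SFN, AEN, DDB2, PHLDA3, GADD45A, DRAM1 and RPS27L), where 5.27% and 6.68% of all genes were, and of these 11 genes only SFN was called. CDKN1A was at 29.8, 33.3 and 21 CPM, of which the last lay under all controls (28.9 to 72.4 CPM) and the others within their range, and its log2 value relative to them was -0.81 (SE 0.32, adjusted p = 0.359). That value rested on which controls were used: without Luciferase replicate 2 it was -1.0 (adjusted p = 0.00265) and without Control replicate 2 it was -1.02 (adjusted p = 0.0135). Over the 19 alternatives CDKN1A ran from -1.20 to -0.28, with adjusted p up to 0.859, and it was called in 4 of them. PLK2 stood at 12.6, 10.3 and 7.52 CPM and CCNG1 at 23.1, 25.7 and 19.8 CPM, both above all controls but with adjusted p of 0.193 and 0.324. AEN (-0.54, adjusted p = 0.115) and DDB2 (-0.67, adjusted p = 0.203) had all 3 VRTN libraries below all controls. AEN was called without Luciferase replicate 2 (-0.62, adjusted p = 0.0269) or Control replicate 1 (-0.63, adjusted p = 0.0292), and DDB2 without Luciferase replicate 2 (-0.76, adjusted p = 0.0471) or Control replicate 2 (-0.86, adjusted p = 0.0205). Over the 19 alternatives AEN ran from -0.63 to -0.45 and was called in 3, and DDB2 ran from -0.94 to -0.34 and was called in 4. FAS had a log2 fold change of 0.38 (adjusted p = 0.804), while ACTA2, which overlaps it on the opposite strand, was called higher in this comparison (2.13, SE 0.54, adjusted p = 0.0386).

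In SEPHS1 siRNA cells none of the targets rose and SFN fell, with 0.602% of all tested genes called higher and 0.931% lower. SFN stood at 10.4, 9.09 and 8.70 CPM, again below every control. It fell by 1.12 (SE 0.26, adjusted p = 0.0211), and the call was lost in 7 alternatives, those without Luciferase replicate 1 (-0.86, adjusted p = 0.187), SEPHS1 replicate 2 (-1.08, adjusted p = 0.0837) and SEPHS1 replicate 3 (-1.06, adjusted p = 0.113) among them. CCNG1 was at 28.3, 25 and 24.6 CPM, above all controls (15 to 18.1 CPM), with a log2 fold change of 0.65 (SE 0.18) and an adjusted p of 0.0578, just past the threshold. With DESeq2's size factors it was called (0.67, adjusted p = 0.0457), and likewise with upper quartile scaling (adjusted p = 0.0449). The median log2 fold change of the 35 targets was -0.21 and 15 were above 0, against -0.02 and 47.5% over all tested genes. An unadjusted p under 0.05 was found for 6 targets. DESeq2 called 1 target higher and limma-voom 0. The mitochondrial share of counts was 38.7% to 45.5% in the SEPHS1 libraries, above all controls (27.9% to 33.4%), and summed fibroblast and mesenchyme markers were at 1620 to 1800 CPM, below all controls (1880 to 2560 CPM). Singly, 2 of the 6 tested markers of that list had a log2 fold change above 0 and 3 below, with a median of -0.06, and 1 was called lower. The part of either in these values was not tested. All SEPHS1 libraries were above the controls in CCNG1 and TP53I3 and below them in SFN, PLK3, PERP and DRAM1, 2 and 4 targets, where 5.25% and 7.76% of all genes were. PERP (-0.77, adjusted p = 0.143), DRAM1 (-1.22, adjusted p = 0.174) and PLK3 (-0.52, adjusted p = 0.404) were not called. CDKN1A, at 34.6, 29 and 28.7 CPM, had a log2 fold change of -0.67 (adjusted p = 0.374), and -0.86 (adjusted p = 0.0128) without Luciferase replicate 2 and -0.88 (adjusted p = 0.0391) without Control replicate 2. Over the 19 alternatives its value ran from -1.07 to -0.14, and it was called in 4 of them.

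In DSCC1 siRNA cells no target was called in either direction, in a comparison where 0.0455% of all tested genes were called, all of them higher. The unadjusted p was under 0.05 for 4 of the 35, and DESeq2 and limma-voom called 0 as well. Here too the mitochondrial share of counts, 33.6% to 39.2%, was above all controls, and its part in these values was not tested. Yet 32 of 35 targets had a log2 fold change below 0, with a median of -0.40, against a median of 0.00 over all tested genes. CDKN1A stood at 23.4, 27.7 and 35.6 CPM (-0.77, SE 0.32, adjusted p = 0.806), and at -0.95 (adjusted p = 0.0106) without Luciferase replicate 2. Over the 19 alternatives its value ran from -1.16 to -0.23, and it was called in 3 of them. SFN, at 11.7, 13.5 and 16.6 CPM, overlapped the controls (-0.55, adjusted p = 0.843). All DSCC1 libraries were below the controls in 2 targets, GADD45A and PERP, and above them in 0, against 4.49% and 4.61% of all genes. The SALL4, VRTN, DSCC1 and SEPHS1 comparisons share the same 4 control libraries, so a direction common to several of them is not independent evidence. DSCC1 against SEPHS1, both harvested at 72 h, had no target called, where 0.268% of all genes were, 0.238% higher and 0.0303% lower. All DSCC1 libraries were above all SEPHS1 libraries in 2 targets and below them in 4, against 8.5% and 5.51% of all genes, and CCNG1 came nearest (-0.76, SE 0.19, adjusted p = 0.0829). There 3 targets had an unadjusted p under 0.05, DESeq2 called 1 lower and limma-voom called 0.

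**Figure D3:**
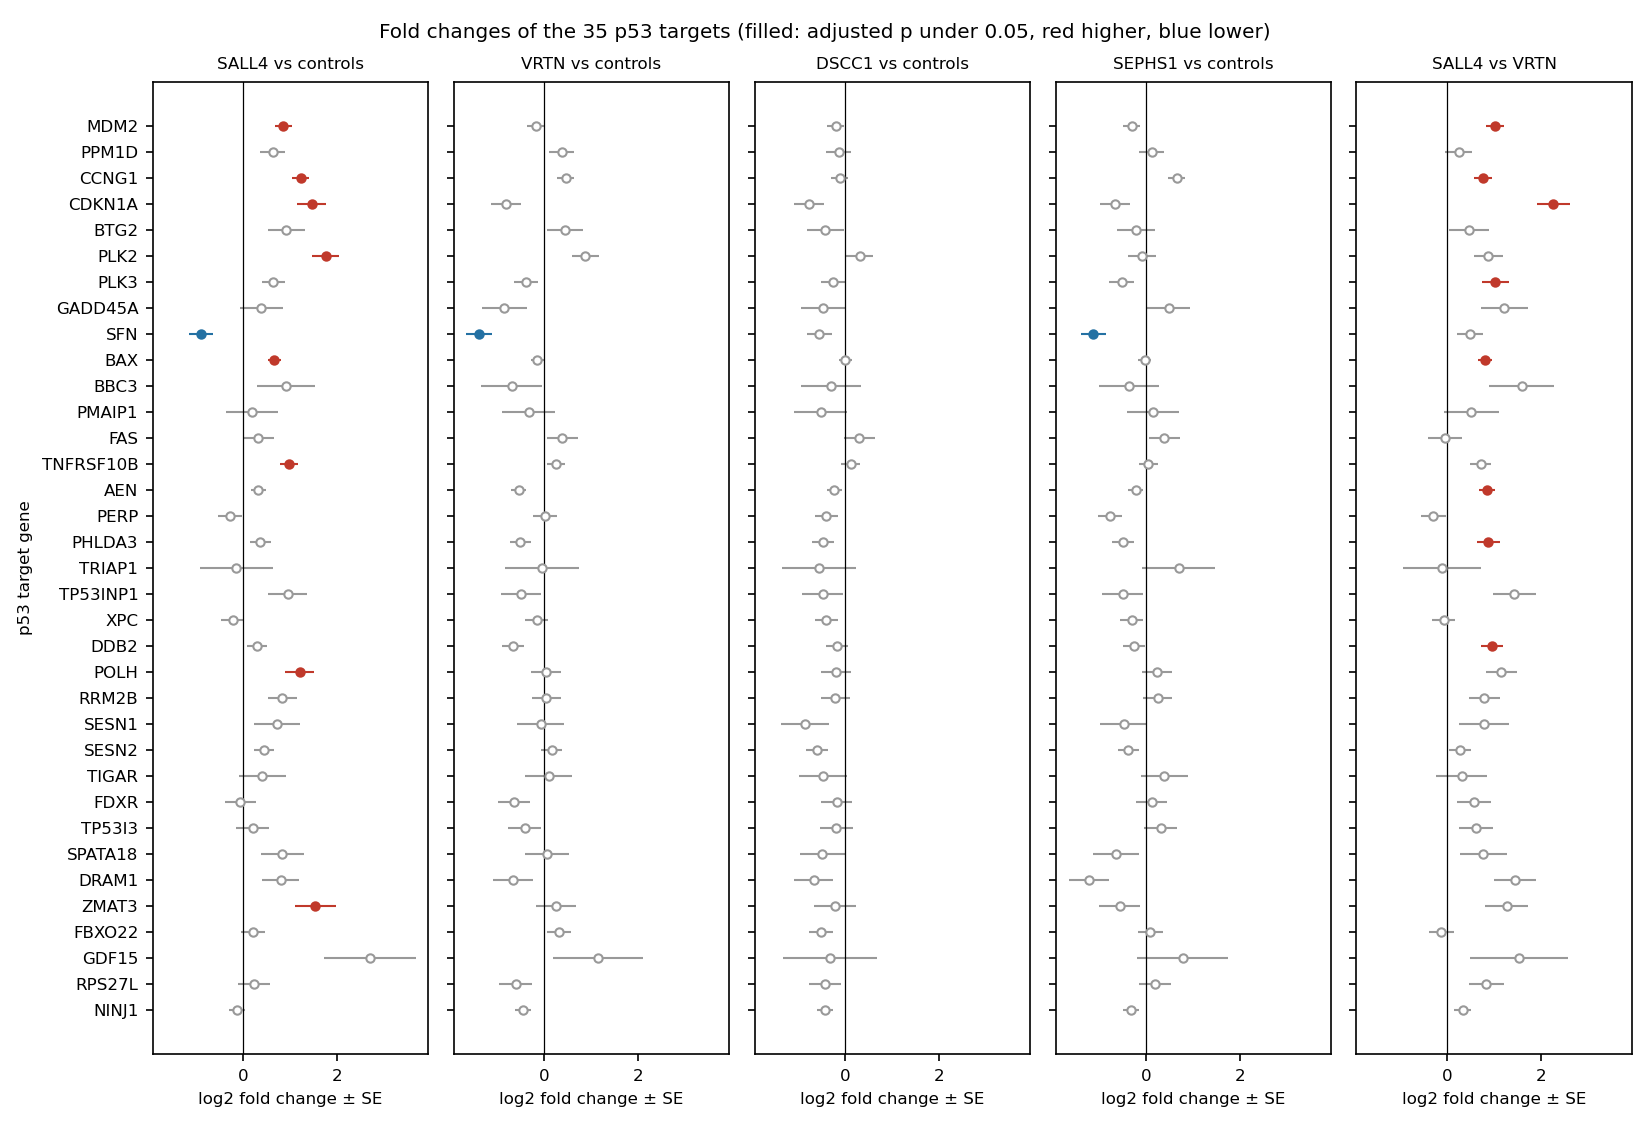
Log2 fold changes with 1 SE for each of the 35 p53 targets in the 4 comparisons with the controls and in SALL4 against VRTN, with filled points for those called. The SALL4 points lie mostly right of 0 (29 of 35), those of DSCC1 mostly left of it (32 of 35), and SFN lies left of 0 in all 4 comparisons with the controls.

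SALL4 was also set directly against VRTN, which has the same labelled harvest time. The difference is taken between these 6 libraries, and the spread is estimated with all groups, controls included. Of the 35 targets 8 were higher in SALL4 cells and 0 lower, while 1.73% of all tested genes were called higher and 0.703% lower, 2.44% in all. The median log2 difference was 0.79 and 30 of 35 targets were above 0, against 0.00 and 49.1% over all genes. The 8 were MDM2, CCNG1, CDKN1A, PLK3, BAX, AEN, PHLDA3 and DDB2. All SALL4 libraries were above all VRTN libraries in 9 targets and below them in 0, where 8.63% and 7.6% of all genes were. Without SALL4 replicate 3, 13 targets were called, and without SALL4 replicate 1, SALL4 replicate 2 or VRTN replicate 3, 4 each time. All genes called went from 482 to 879, 248, 275 and 383 in these fits. Fitted on the 6 libraries alone, 193 genes were called and 3 targets, MDM2, CDKN1A and AEN, so that BAX, CCNG1, DDB2, PHLDA3 and PLK3 were lost.

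CDKN1A differed most, at 192, 178 and 31.7 CPM in SALL4 cells and 29.8, 33.3 and 21 CPM in VRTN cells. SALL4 replicate 3 fell inside the VRTN range. The log2 difference was 2.26 (SE 0.35, adjusted p = 9.78e-05), with 1.91 as the lowest and 2.74 as the highest value over the alternatives, in all of which CDKN1A was called. MDM2, at 37.5, 33.4 and 29.1 CPM in VRTN cells, was under all 3 SALL4 libraries (1.03, SE 0.19, adjusted p = 0.00121). Its call too held in all alternatives. BAX was at 149, 154 and 124 CPM in VRTN cells, again without overlap (0.81, SE 0.15, adjusted p = 0.00116; 0.0593 in the fit on the compared groups only).

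AEN stood at 85.6, 97.3 and 68.8 CPM in SALL4 cells and at 49.5, 41.3 and 47.7 CPM in VRTN cells. The groups did not overlap, and the log2 difference was 0.86 (SE 0.17, adjusted p = 0.00266), called in all alternatives. Against the controls (55.7 to 79.6 CPM), AEN was called in neither group. CCNG1 was higher in SALL4 cells by 0.76 (SE 0.19, adjusted p = 0.0219), also without overlap. The call of CCNG1 ended without SALL4 replicate 1 (0.64, adjusted p = 0.19), SALL4 replicate 2 (0.80, adjusted p = 0.0566), VRTN replicate 1 (0.77, adjusted p = 0.079) or VRTN replicate 3 (0.66, adjusted p = 0.113).

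The calls of the other 3 likewise ended when single libraries were left out. PLK3 was at 14.4, 13.3 and 10.1 CPM in VRTN cells, and SALL4 replicate 3 at 11.9 CPM lay among them (1.03, SE 0.28, adjusted p = 0.0387). PHLDA3 was at 46.7, 38.2 and 18.7 CPM in SALL4 cells and 20.1, 20.4 and 15.9 CPM in VRTN cells (0.88, SE 0.24, adjusted p = 0.046). DDB2 was at 23.4, 19.7 and 19.2 CPM in VRTN cells, and SALL4 replicate 3 at 20.8 CPM overlapped them (0.96, SE 0.24, adjusted p = 0.0228).

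Leaving out SALL4 replicate 1 or 2 or any 1 VRTN library ended the calls of PLK3 (0.81 to 1.14, adjusted p from 0.0731 to 0.303) and PHLDA3 (0.60 to 0.94, adjusted p from 0.102 to 0.432). The call of DDB2 ended without SALL4 replicate 1 (0.76, adjusted p = 0.207), SALL4 replicate 2 (0.81, adjusted p = 0.162), VRTN replicate 2 (0.93, adjusted p = 0.104) or VRTN replicate 3 (0.91, adjusted p = 0.0903). Of the genes called against the controls, TNFRSF10B (0.72, adjusted p = 0.0712), POLH (1.16, adjusted p = 0.0658), PLK2 (0.88, adjusted p = 0.156) and ZMAT3 (1.27, adjusted p = 0.176) were not called in SALL4 against VRTN. SFN, lower than the controls in both groups, differed by 0.49 between them (adjusted p = 0.481). Without SALL4 replicate 3 the log2 differences of the called genes were 1.27 for MDM2 (adjusted p = 4.27e-06), 1.02 for BAX (adjusted p = 1.94e-06) and 1.38 for PLK3 (adjusted p = 0.000262). They were 1.29 for DDB2 (adjusted p = 6.48e-05), 1.19 for PHLDA3 (adjusted p = 0.000436), 1.0 for AEN (adjusted p = 0.000206) and 0.86 for CCNG1 (adjusted p = 0.00904).

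Of 28 tested regulators of the pathway, none was called in the SALL4, DSCC1 or SEPHS1 comparison, where 2.98%, 0.0455% and 1.53% of all tested genes were. The unadjusted p was under 0.05 for 5, 2 and 7 regulators in these 3 comparisons. In VRTN cells 1 regulator was higher and 1 lower, where 0.445% and 0.683% of all tested genes were. TP53BP1, a damage response scaffold, stood at 45.7, 51.1 and 48.6 CPM in VRTN cells and at 22.6 to 36.9 CPM in the controls (0.82, SE 0.17, adjusted p = 0.00617). The call of TP53BP1 ended with the Luciferase pair as the only controls (0.63, adjusted p = 0.271) and against replicate 1 of the controls (0.65, adjusted p = 0.168). USP7, which removes ubiquitin from MDM2 and p53, was at 64.9, 42.5 and 35.5 CPM against 65.5 to 83.5 CPM (-0.62, SE 0.16, adjusted p = 0.0466), a call lost in 10 of 19 alternatives, among them those without Luciferase replicate 1 (-0.52, adjusted p = 0.1), Control replicate 2 (-0.60, adjusted p = 0.0592), VRTN replicate 2 (-0.54, adjusted p = 0.264) or VRTN replicate 3 (-0.44, adjusted p = 0.369).

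A further 60 p53 targets that are not among the 35 were tested. After SALL4 siRNA 6 of them rose and none fell (TRIM22, EPS8L2, PIDD1, RAP2B, LIF and EPHA2), with a median log2 fold change of 0.28 and 45 of 60 above 0. Of all tested genes 1.85% were called higher, 51.3% were above 0 and the median was 0.02. None of the 60 was called in the VRTN, DSCC1 or SEPHS1 comparison, where edgeR's unadjusted p was under 0.05 for 7, 4 and 10 of them. TRIM22, an antiviral ubiquitin ligase, was at 111, 98.7 and 76.5 CPM after SALL4 siRNA and at 12.9 to 31.0 CPM in the controls (2.26, SE 0.24, adjusted p = 1.12e-07). In contrast to CDKN1A, all 3 SALL4 libraries were above the controls for TRIM22. EPS8L2, an actin-linked adaptor, was at 89.2, 64.6 and 37.9 CPM, replicate 3 among the controls of 26.9 to 48.2 CPM (0.95, SE 0.21, adjusted p = 0.00648; 0.63, adjusted p = 0.183 without SALL4 replicate 1). Both were also called in SALL4 against VRTN, TRIM22 by 1.98 (adjusted p = 6.6e-06) and EPS8L2 by 1.74 (adjusted p = 8.83e-06). They were 2 of 6 that were higher there, where 1.73% of all tested genes were. The median log2 ratio of the 60 to the control mean was 0.34, 0.24 and -0.09 in SALL4 replicates 1, 2 and 3.

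Genes repressed through p21 and the DREAM complex, which silences cell cycle genes, were taken as the downstream arm. Of 32 tested, 1 was lower and none higher after SALL4 siRNA, with a median log2 fold change of -0.16 and 11 of 32 above 0, where 1.13% of all genes were called lower, the median was 0.02 and 51.3% were above 0. It was MCM5, a subunit of the replicative helicase, at 127, 136 and 211 CPM against 198 to 271 CPM in the controls (-0.57, SE 0.14, adjusted p = 0.0166). Replicates 1 and 2 were below the controls and replicate 3 within them, and the call of MCM5 ended without SALL4 replicate 1 (-0.44, adjusted p = 0.17) or replicate 2 (-0.47, adjusted p = 0.18). In SALL4 against VRTN 3 were lower, CCNB2, a mitotic cyclin (-0.82, SE 0.18, adjusted p = 0.00811), BUB1, a spindle checkpoint kinase (-0.62, SE 0.14, adjusted p = 0.00815), and UBE2C, a ubiquitin-conjugating enzyme of mitosis (-0.38, adjusted p = 0.0475), where 0.703% of all genes were lower. The call of CCNB2 ended without SALL4 replicate 1 (-0.72, adjusted p = 0.081) or replicate 2 (-0.75, adjusted p = 0.07), and that of BUB1 without SALL4 replicate 1 (-0.52, adjusted p = 0.092) or VRTN replicate 1 (-0.58, adjusted p = 0.0518).

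Relatives of the targets by sequence were read beside them, among them SESN3, PLK1 and PLK4, which also belong to the lists above. Of 17 tested after SALL4 siRNA, 2 rose and 1 fell, where 1.85% of all tested genes were called higher and 1.13% lower. The fold change was above 0 in 14, with a median log2 fold change of 0.49, against 51.3% and 0.02 over all tested genes. CDKN1C, the p57 relative of CDKN1A, was at 11.5, 9.73 and 13.6 CPM against 1.42 to 3.30 CPM in the controls (2.20, SE 0.40, adjusted p = 0.000906). Unlike CDKN1A, CDKN1C was highest in SALL4 replicate 3. RPS27, the near-identical relative of RPS27L, rose by 0.54 (adjusted p = 0.00297), and by 0.47 (adjusted p = 0.0221) in VRTN and 0.42 (adjusted p = 0.0463) in SEPHS1 cells, while RPS27L was not called in any of them, and how reads common to both were assigned bears on both. RRM2, the S-phase relative of RRM2B, fell by 0.49 (adjusted p = 0.0377) after SALL4 siRNA. CDKN1C, RPS27 and RRM2 were named after their values were seen.

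**Figure D4:**
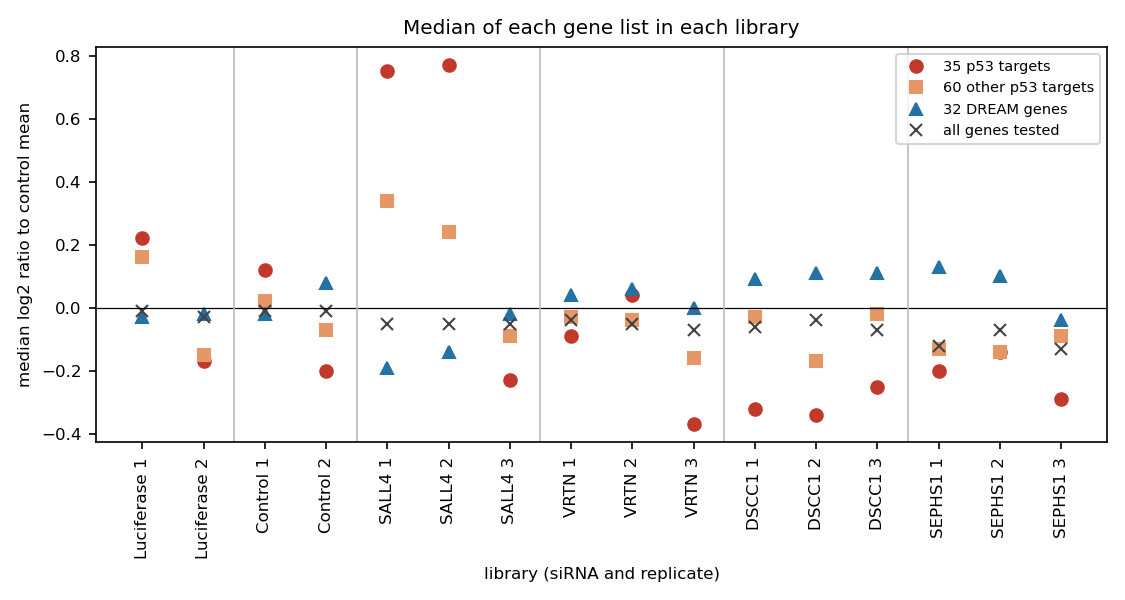
The median log2 ratio to the control mean of the 35 p53 targets, 60 other p53 targets, 32 DREAM genes and all tested genes in each of the 16 libraries, controls included. The 35 targets are at 0.75 and 0.77 in SALL4 replicates 1 and 2, between -0.37 and 0.22 in all other libraries, and at -0.23 in SALL4 replicate 3.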

How the data were processed

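Read counts per gene (raw counts, not normalized) were deposited by the authors for all 16 libraries in 1 table. Per the submitters' processing notes, STAR 2.4.0.1, HTSeq 0.9.1 and GRCh38 were used, and the annotation release and strand setting are not given in the sources used here. Of the identifiers, 41209 took their symbol from a table of gene names and 15846 from GENCODE 29, and 3620 stayed unnamed.

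Genes passing filterByExpr (19772) were scaled by TMM and fitted with edgeR 4.0.16's quasi-likelihood model in R 4.3.3 on all 6 siRNA groups, so that the groups share 1 estimate of the spread. Each knockdown was compared with the mean of the Luciferase and Control means, and Benjamini-Hochberg adjusted p-values cover all genes tested. The scripts were tested on simulated data for the 4 comparisons with the controls. There 6.48% to 11.1% of the calls at adjusted p under 0.05 were false. Of genes changed 2-fold, 27.8% to 40.8% were called over all levels, and 80% to 96.8% at a log2 CPM of 4 or more. A gene not called may therefore still have changed. Counts of genes with an unadjusted p under 0.05 are given without the share over all tested genes, which was not computed. Levels are TMM-normalised CPM, and 0.5 CPM was added for ratios to the control mean. Library totals and the 3-count floor cover counting error only. Alternatives were DESeq2 1.42.0, limma 3.58.1 (voom with quality weights), other scalings and filters, subsets of the controls, a replicate block, fits on the compared groups only, and leaving out each library. SALL4 against VRTN and DSCC1 against SEPHS1 were fitted in the same model.

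The 35 members, the roles and the further lists were chosen with earlier results of these data known. Every member called in a knockdown comparison or in SALL4 against VRTN is named with its values by library. From each further list the 2 called genes with the smallest p per direction are named, besides the siRNA targets, and 1 gene of the regulator list is not reported here. Other genes are named to complete a count. Member promoters came from RefSeq and overlaps from GENCODE 29.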

Additional observations from a re-analysis of the deposited data

Results flagged for a closer look

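TP53INP1 had 1 control library far from the others: it stood at 10.7 CPM in Luciferase replicate 1, while the next control was at 4.96 CPM and the lowest at 4.22 CPM. The gap was 0.886 of the whole range of the 4 controls, above Dixon's critical value for 4 samples. It was the only 1 of the 35 p53 targets with such a control, and chance gives about 1 in 20 groups. The same library was above the other 3 controls in 20 of the 35 targets, against 24.7% of all tested genes.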

How the results depend on the processing

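Counts are of all genes called, then of p53 targets higher and lower where they moved. No result reversed.

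With the Control pair as the only controls, 280 genes were called for SALL4 (0 targets lower), 95 for VRTN, 2 for DSCC1 and 103 for SEPHS1 (0 lower). With the Luciferase pair alone, the counts were 236 (3 higher, 0 lower), 89, 2 and 128 (0 lower). Against replicate 1 of the controls they were 342 (5 higher) for SALL4, 109 (2 lower) for DSCC1, and 3 targets were lower in VRTN and 2 in SEPHS1 cells. Against replicate 2 they were 4 for DSCC1 and 137 for SEPHS1, and 0 targets were lower in SALL4, VRTN and SEPHS1 cells.

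Fitted on the compared groups only, SALL4 had 349 genes (3 targets higher, of which GDF15 was a gain, and 0 lower), DSCC1 37, SEPHS1 198 and SALL4 against VRTN 193 (3 higher). DESeq2 called 425 genes for VRTN, 44 for DSCC1, 568 (1 higher) for SEPHS1, 737 for SALL4 against VRTN and 205 (1 lower) for DSCC1 against SEPHS1. CDKN1A missed the threshold in SALL4 cells there (1.46, adjusted p = 0.0636). limma-voom called 1291 (0 lower) for SALL4, 348 for VRTN, 41 for DSCC1, 158 (0 lower) for SEPHS1, 897 for SALL4 against VRTN and 24 for DSCC1 against SEPHS1.

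Without a filter the counts were 397 (4 lower) for VRTN, 99 (1 lower) for DSCC1, 516 (2 lower) for SEPHS1, 726 for SALL4 against VRTN and 151 for DSCC1 against SEPHS1. The stricter filter left 2 genes for DSCC1, 0 targets lower in SALL4 and 1 higher in SEPHS1 cells. DESeq2's size factors gave 0 lower in SALL4 and 1 higher in SEPHS1 cells, as upper quartile scaling did for the latter. The cause of these moves was not tested.

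Same-numbered libraries correlated from -0.32 to 0.36 in their deviations from the group means. Within such small groups these deviations cancel, which forces correlations of both signs. The range therefore cannot settle whether the numbers pair the cultures. With a replicate block, 15 genes were called for DSCC1, 147 for DSCC1 against SEPHS1, 686 for SALL4 against VRTN (12 targets higher) and 820 for SALL4 (0 lower). The 12 include TNFRSF10B (0.70, adjusted p = 0.00607), POLH (1.11, adjusted p = 0.0323) and ZMAT3 (1.19, adjusted p = 0.031).

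Leaving out 1 library at a time, SALL4 had 275 to 924 genes (3 to 12 targets higher, 0 to 1 lower), VRTN 135 to 271 (1 to 5 lower), DSCC1 2 to 98 (0 to 1 lower), SEPHS1 135 to 472 (0 to 2 lower), SALL4 against VRTN 248 to 879 (4 to 13 higher) and DSCC1 against SEPHS1 22 to 71.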
